A study of Mus musculus with 8 samples.

Results

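The genes described here are 36 mouse genes of glycolysis and of the response to low oxygen, given as a list of names and taken whole from a table of 49671 genes. All 36 were found by symbol, 1 of them under its current name Car9 (listed as Ca9), and 33 passed a filter on low counts that kept 11505 genes. Aldoc, Pgam1 and Car9 did not pass, and their levels are described only. The list was not chosen on levels in these tumors by its rule, but it was drawn up with earlier results of these data known.

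The 8 samples are mouse tumors, numbered 1, 2L, 2R, 3, 4a, 4b, 5 and 6 in the titles. Each has the same genotype: HprtCre, Ewsr1-loxP and Atf1-loxP, meaning Cre made from the Hprt locus and loxP sites in Ewsr1 and Atf1, so that both genes can be joined by recombination. All were induced genetically, received no drug, and were frozen when the primary tumor had made the animal moribund. RNA was sequenced after ribosomal RNA depletion. No normal tissue, no tumor without these alleles and no oxygen treatment is among the samples, so the tumors are compared only with each other. Because Hprt is active in most cells, the genotype does not by itself restrict the cell of origin, and the labels give neither the site of a tumor nor the age of an animal. They also do not say whether tumors that share a number came from 1 animal, or that any came from separate animals, so p-values measure only the spread between these libraries, which may be technical.

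Glycolysis splits glucose into pyruvate in the cytosol and yields ATP without oxygen. Glucose enters through facilitative transporters, is trapped by hexokinases, committed by phosphofructokinase and split by aldolase, and pyruvate is then either reduced to lactate and exported or sent to mitochondria. Hypoxia-inducible factors (HIF) are dimers whose alpha subunit, HIF-1 alpha or HIF-2 alpha (encoded by Hif1a and Epas1), is hydroxylated by EGLN enzymes when oxygen is present, bound by the von Hippel-Lindau protein and degraded. With little oxygen the subunit persists, and the dimer binds DNA at a short core motif and raises transcription of many glycolytic genes and of its own inhibitors. Because this control acts on the protein, the mRNA of Hif1a or Epas1 does not report HIF activity. Many tumors also use glycolysis where oxygen is present.

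The HIF core motif was looked for in the 250 bases before 1 annotated start of each gene. Promoter sequences came from RefSeq on build GRCm38.p6, which hold an entry for 31 of the 36 genes. Of these genes, 9 had more than 1 entry, and only the first entry was used. The start used can therefore lie inside the annotated gene, as for Ldha and Slc16a3. The motif was searched as ACGTG and as GCGTG on both strands, so that CACGTG counts as an ACGTG match on each strand. ACGTG was found before 16 of 31 genes (51.6%), against 16.6% of all 27018 genes with an entry. GCGTG was found before 15 of 31 (48.4%), against 28.2% of all genes, and either of them before 24 of 31 (77.4%), against 38.6%. The CREB/ATF motif TGACGTCA was found before 1 of the 31, Ldha (3.23%), against 1.62% of all genes. A match describes letters in this window and does not show a bound site, and the letters depend on base composition, which differs between promoters. The 5 sequences below are shown because Bnip3, Slc16a3 and Ldha were high in tumors 1, 2R and 6 and low in 4b, whereas Slc2a1 and Hk2 were high in 2L and 5. These patterns are not cleanly separate. Ldha was also high in 2L (318 CPM, against 316 in 1). Slc2a1 was highest in 3, where Bnip3 and Ldha were lowest. Each is written 5′ to 3′ on the strand of the gene and ends at the base before the start, and capitals mark ACGTG or GCGTG on either strand (CACGT and CACGC are their reverse complements).
Bnip3: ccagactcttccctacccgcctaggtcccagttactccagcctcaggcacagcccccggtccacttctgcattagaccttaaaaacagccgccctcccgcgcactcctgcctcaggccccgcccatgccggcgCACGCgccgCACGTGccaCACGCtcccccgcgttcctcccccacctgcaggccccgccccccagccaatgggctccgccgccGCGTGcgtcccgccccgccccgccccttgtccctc
Slc16a3: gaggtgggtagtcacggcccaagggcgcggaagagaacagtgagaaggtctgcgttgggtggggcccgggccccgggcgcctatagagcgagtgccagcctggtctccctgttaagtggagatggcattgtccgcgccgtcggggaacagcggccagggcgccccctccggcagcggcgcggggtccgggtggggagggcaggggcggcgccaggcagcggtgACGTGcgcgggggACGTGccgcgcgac
Ldha: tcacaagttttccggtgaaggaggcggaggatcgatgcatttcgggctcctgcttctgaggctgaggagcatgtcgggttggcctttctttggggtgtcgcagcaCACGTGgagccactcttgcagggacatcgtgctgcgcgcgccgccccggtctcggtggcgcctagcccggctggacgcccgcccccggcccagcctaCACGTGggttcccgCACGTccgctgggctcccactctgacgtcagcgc
Slc2a1: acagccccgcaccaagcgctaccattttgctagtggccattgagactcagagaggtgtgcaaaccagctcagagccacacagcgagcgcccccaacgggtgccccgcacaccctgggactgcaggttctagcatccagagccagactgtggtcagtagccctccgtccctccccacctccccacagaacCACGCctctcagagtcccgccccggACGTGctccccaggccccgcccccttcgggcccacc
Hk2: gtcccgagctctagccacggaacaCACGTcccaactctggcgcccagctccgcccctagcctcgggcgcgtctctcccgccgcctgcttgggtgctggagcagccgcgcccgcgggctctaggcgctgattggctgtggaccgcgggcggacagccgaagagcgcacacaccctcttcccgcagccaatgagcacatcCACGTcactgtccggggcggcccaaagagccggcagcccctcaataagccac
Bnip3 lies on the minus strand (chr7:138909507-138909756), Slc16a3 on the plus strand (chr11:120948817-120949066), Ldha on the plus strand (chr7:46845554-46845803), Slc2a1 on the plus strand (chr4:119108495-119108744) and Hk2 on the minus strand (chr6:82774455-82774704). Ldha held 5 matches to ACGTG, counted over both strands, Bnip3 2 and 3 to GCGTG, Slc16a3 2, Hk2 2 and Slc2a1 1 of each kind. Motifs of both kinds stood before genes of either pattern of levels.

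Levels are given as CPM, the counts of a gene scaled to a common library size, here the library's counts over the kept genes times a TMM factor. Values of 1 gene are listed from the highest tumor to the lowest. Comparisons between genes are made in CPM per kilobase of exon. Library totals ran from 4817902 counts in tumor 3 to 19682149 in 2L. Tumor 3 stood apart from the other 7. Its TMM factor was 0.394, 39.9% of its counts were from the noncoding genes Gm26917, Gm42418 and Gm23935 (0.551% to 14.3% in the others), and 33.8% were mitochondrial (1.81% to 27.3% in the others). The 36 genes held 0.0951% of its counts, 4580 counts in all, against 0.247% to 0.596% in the other 7. A count of 0 allows up to 3 counts, which is 1.60 CPM in tumor 3 and at most 0.467 CPM in the others, and this limit covers counting error only. Results are therefore given with and without tumor 3 where it bears on them. The rank of tumor 3 in CPM also depends on its TMM factor, as in its first rank for Slc2a1, Egln1, Pfkp and Pfkfb4.

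Transcripts of several of these genes have near-identical pseudogene copies, so reads may have been lost or split in counting, and their levels are uncertain. Of all 50-base stretches of the longest transcript, the share found in another annotated gene was 72.2% for Eno1, 68.0% for Pgk1, 62.4% for Bnip3, 41.5% for Pgam1, 36.6% for Higd1a, 34.4% for Pkm, 27.0% for Ldhb, 23.4% for Bnip3l, 16.6% for Ldha and 13.5% for Aldoa. Pgk1 and Pgam1, 2 of the genes with large shares, averaged 5.31 and 1.37 CPM per kilobase. Differences of 1 such gene between tumors keep the same transcript on both sides.

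The most abundant of the 36 genes per length were enzymes of glycolysis and a lactate carrier. Aldoa, which encodes aldolase A, averaged 161 ± 94.1 CPM per kilobase (SD, n = 8), the 98.9th percentile of the genes kept. Pkm (pyruvate kinase) followed at 93.4 ± 39.4, Ldha (lactate dehydrogenase A) at 78.9 ± 30.7, Tpi1 (triosephosphate isomerase) at 57.7 ± 30.3, the monocarboxylate transporter gene Slc16a1 at 55.7 ± 22.4 and Hif1a at 33.7 ± 12.4 CPM per kilobase. Each of these 6 differed from the next in order by less than its own SD. Slc2a3, Pgam1, Eno2 and Ankrd37 were the lowest, with means of 0.671, 1.37, 1.37 and 1.88 CPM per kilobase.

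**Figure D1:**
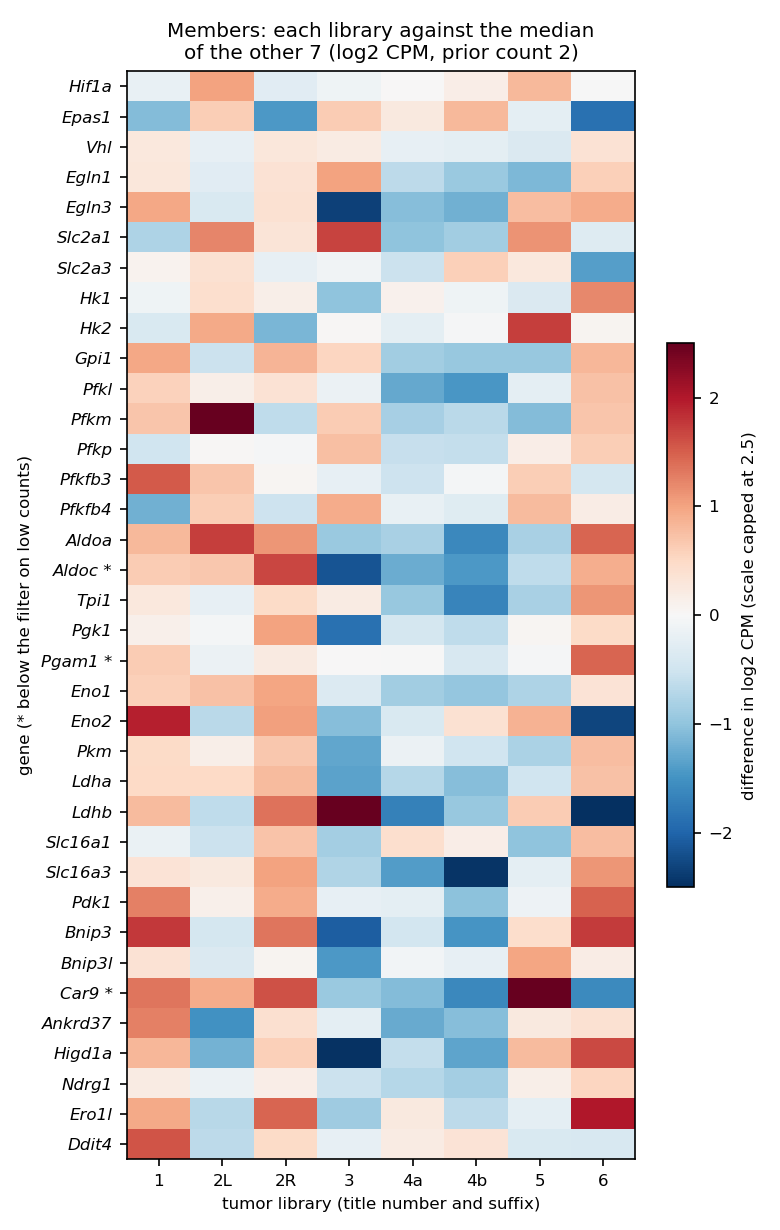
Each row is 1 of the 36 genes, ordered by role, and each column 1 tumor library; color is log2 CPM minus the median of the other 7 libraries, capped at 2.5. Columns 1, 2R and 6 are mostly red and columns 4a and 4b mostly blue, column 3 holds large differences of both signs (Ldhb at 3.43, Higd1a at -2.47), and asterisks mark the 3 genes below the filter.

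Among the regulators, both HIF alpha genes were transcribed in every tumor, and Vhl varied least. Hif1a (ENSMUSG00000021109, mm10 chromosome 12, 73901375 to 73947530) stood at 335 CPM in 2L, 291 in 5, 186 in 4b, 168 in 4a, 166 in 6, 156 in 3, 149 in 1 and 138 in 2R. Tumors 2L and 5 were highest, and the other 6 lay between 138 and 186 CPM. Epas1 (ENSMUSG00000024140, mm10 chromosome 17, 86753700 to 86833410) stood at 106 CPM in 4b, 93.7 in 3, 92.9 in 2L, 71.8 in 4a, 60.2 in 5, 33.9 in 1, 26.6 in 2R and 19.6 in 6. It was lowest in 6, 2R and 1, and its highest and lowest values were 5.40-fold apart. Per kilobase, Hif1a exceeded Epas1 in 8 of 8 tumors, by a mean of 1.74 on the log2 scale (SD 0.83), from 0.65 in 3 to 3.01 in 6.

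Vhl, the gene of the protein that recognizes hydroxylated HIF alpha, ranged from 21.6 CPM in 5 to 30.7 CPM in 6, with an SD of 0.18 in log2 CPM (the 3.04th percentile of SDs over the genes kept). The EGLN hydroxylases differed more. Egln1, the main oxygen sensor for HIF in most tissues, stood at 100.1 CPM in 3, 75.9 in 6, 64.8 in 2R, 60.9 in 1, 50.2 in 2L, 38.4 in 4a, 32.1 in 4b and 27.9 in 5. Egln3, itself induced by HIF, stood at 53.01 CPM in 1, 51.7 in 6, 46.1 in 5, 35.5 in 2R, 27.00 in 2L, 16.9 in 4a, 15.3 in 4b and 6.92 in 3, and its value in tumor 3 rests on 13 counts. Egln3 was highest in 1, 6 and 5, and lowest in 3, 4b and 4a. Egln1 per kilobase exceeded Egln3 by a mean of 0.56 on the log2 scale (SD 1.31, higher in 6 of 8); without tumor 3, where the ratio was 3.42, the mean was 0.15.

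Glucose uptake and trapping genes had their own order of tumors. Slc2a1, which encodes the transporter GLUT1 (ENSMUSG00000028645, mm10 chromosome 4, 119108711 to 119137983), stood at 100.1 CPM in 3, 72.97 in 2L, 68.4 in 5, 39.1 in 2R, 31.2 in 6, 22.7 in 1, 21.4 in 4b and 19.3 in 4a. It was highest in 3, 2L and 5, and lowest in 4a, 4b and 1. The value in 3 rests on 188 counts and on the TMM factor of 0.394. Without tumor 3, Slc2a1 ranged from 19.3 to 72.97 CPM. Slc2a3 (GLUT3) was low, at 7.33 CPM in 4b, 6.27 in 2L, 5.79 in 5, 5.06 in 1, 4.79 in 3, 4.36 in 2R, 3.44 in 4a and 1.87 in 6, and per kilobase Slc2a1 exceeded it in 8 of 8 tumors by a mean of 4.16 on the log2 scale (SD 0.97).

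Hk2, the inducible hexokinase, stood at 266 CPM in 5, 154 in 2L, 84.1 in 6, 81.5 in 3, 80.5 in 4b, 68.3 in 4a, 61.97 in 1 and 36.9 in 2R. It was 7.21-fold apart between 5 and 2R, and every tumor other than 5 and 2L lay at or below 84.1 CPM. Hk1, the hexokinase of most tissues, stood at 168 CPM in 6, 97.1 in 2L, 80.5 in 2R, 78.1 in 4a, 72.8 in 4b, 72.5 in 1, 60.4 in 5 and 38.9 in 3. Hk2 exceeded Hk1 per kilobase in 6 of 8 tumors, with a mean log2 ratio of 0.70 (SD 1.09) and a range of -0.61 in 2R to 2.65 in 5. With the longest annotated transcript as the length of each gene the mean was -0.18, so the direction of this ratio depends on the length used, while its order among tumors does not. Tumor 5 also held the red cell markers, 14880 CPM summed over 10 genes against 20.1 to 450.1 CPM in the other 7, and their part in its Hk2 level was not tested.

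The phosphofructokinase genes encode the committing step of glycolysis. Pfkm, the muscle subunit, stood at 212 CPM in 2L, 58.5 in 6, 58.2 in 1, 55.9 in 3, 35.97 in 2R, 34.8 in 4b, 31.4 in 4a and 26.1 in 5. The value in 2L was far above the others, all of which lay between 26.1 and 58.5 CPM. Skeletal muscle markers were also highest in 2L, at 22279 CPM summed over 14 genes, against 7005 CPM in 3 and 19.72 to 132 CPM in the other 6, and none of the 14 was at 0 in all libraries. Their part in the Pfkm level was not tested, and in bulk RNA a larger share of cells of a type and more RNA per cell cannot be told apart.

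Pfkl, the liver subunit, stood at 94.9 CPM in 6, 85.4 in 1, 73.5 in 2R, 63.02 in 2L, 56.99 in 3, 53.2 in 5, 25.8 in 4a and 22.9 in 4b. It was lowest in 4a and 4b and highest in 6 and 1. Pfkp, the platelet subunit, stood at 146 CPM in 3, 132 in 6, 97.6 in 5, 88.02 in 2L, 86.7 in 2R, 62.5 in 1, 59.3 in 4a and 58.4 in 4b, a spread of 2.51-fold. Per kilobase Pfkm exceeded Pfkl by a mean of 0.91 on the log2 scale (SD 0.95, higher in 6 of 8), or 0.29 with the longest transcript as the length, and Pfkp stood below Pfkl by a mean log2 ratio of -0.31 (SD 0.63, higher in 3 of 8), or -0.53 with that length.

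PFKFB enzymes make and remove fructose 2,6-bisphosphate, an activator of phosphofructokinase. Pfkfb3 stood at 74.1 CPM in 1, 41.4 in 2L, 38.96 in 5, 26.3 in 2R, 25.4 in 4b, 22.9 in 3, 19.5 in 6 and 18.3 in 4a. Tumor 1 was highest, and the other 7 lay between 18.3 and 41.4 CPM. Pfkfb4 stood at 37.8 CPM in 3, 34.5 in 5, 30.4 in 2L, 22.6 in 6, 19.8 in 4a, 18.2 in 4b, 15.9 in 2R and 9.68 in 1, and tumor 1 was lowest. Pfkfb3 over Pfkfb4 per kilobase was 2.30 on the log2 scale in tumor 1, against -1.36 to 0.10 in the other 7.

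In the middle of the pathway, Gpi1 (glucose-6-phosphate isomerase) ranged from 104 to 272 CPM with a median of 170.02 CPM, and lay between 201 and 272 CPM in 1, 2R, 3 and 6. Aldoa (ENSMUSG00000030695, mm10 chromosome 7, 126795234 to 126800751) stood at 924 CPM in 2L, 765 in 6, 596 in 2R, 489 in 1, 278 in 5, 278 in 4a, 257 in 3 and 160.5 in 4b. It was highest in 2L, which holds the most muscle marker RNA, and then in 6, 2R and 1. Aldoc, the brain aldolase, had 1.60 to 15.7 CPM and only 3 counts in tumor 3. Aldoa exceeded Aldoc per kilobase in 8 of 8 tumors, by a mean of 6.42 on the log2 scale (SD 0.65).

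Tpi1 stood at 321 CPM in 6, 208 in 2R, 179 in 1, 172 in 3, 149 in 2L, 97.4 in 5, 89.7 in 4a and 54.9 in 4b. Pgk1, phosphoglycerate kinase, stood at 23.2 CPM in 2R, 16.1 in 6, 12.6 in 1, 12.01 in 5, 11.6 in 2L, 8.90 in 4a, 7.71 in 4b and 3.20 in 3, with 6 counts in tumor 3. Tumors 6 and 2R held the highest values of both, and Tpi1 was lowest in 4b. Pgam1, phosphoglycerate mutase, had 1.59 to 6.06 CPM. Eno1, the enolase of most tissues, stood at 76.5 CPM in 2R, 64.1 in 2L, 57.98 in 1, 48.8 in 6, 38.4 in 3, 28.5 in 5, 26.7 in 4a and 25.01 in 4b, and was lower in 4a, 4b and 5 than in the other 5 tumors.

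Eno2, the neuronal enolase, was low but very unequal, at 17.2 CPM in 1, 9.03 in 2R, 8.003 in 5, 5.74 in 4b, 4.35 in 4a, 3.53 in 2L, 2.66 in 3 and 1.06 in 6. The highest value, in 1, was 16.3-fold the lowest, in 6. Eno1 exceeded Eno2 per kilobase in 8 of 8 tumors, by 1.56 in 1 to 5.34 in 6 on the log2 scale. Pkm stood at 739 CPM in 6, 689 in 2R, 602 in 1, 474 in 2L, 431 in 4a, 338 in 4b, 273 in 5 and 193 in 3, lowest in tumor 3 and highest in 6.

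At the pyruvate branch, Ldha (ENSMUSG00000063229, mm10 chromosome 7, 46841475 to 46855627) stood at 388 CPM in 2R, 375 in 6, 318 in 2L, 316 in 1, 225 in 5, 191 in 4a, 150.1 in 4b and 125 in 3. Tumors 2R, 6, 2L and 1 lay between 316 and 388 CPM, and 3, 4b, 4a and 5 between 125 and 225 CPM. Ldhb, whose subunit favors the reverse reaction in many tissues, stood at 82.03 CPM in 3, 19.3 in 2R, 13.1 in 1, 11.7 in 5, 7.49 in 2L, 5.97 in 4b, 3.56 in 4a and 1.06 in 6. Its highest value, in 3, was 77.6-fold its lowest, in 6, and 18.3-fold apart without tumor 3, with the largest SD of log2 CPM of all 36 genes, 1.79. Ldha exceeded Ldhb per kilobase in 7 of 8 tumors, by 3.19 to 7.39 on the log2 scale, whereas in tumor 3 the ratio was -0.47.

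Pdk1 encodes a kinase that inhibits pyruvate dehydrogenase. It stood at 111 CPM in 6, 95.2 in 1, 75.1 in 2R and 43.2 in 2L. Its lower values were 39.7 in 5, 37.3 in 3, 36.6 in 4a and 21.2 in 4b. Tumors 6, 1 and 2R were highest and 4b lowest. Slc16a3, which encodes the lactate exporter MCT4 (ENSMUSG00000025161, mm10 chromosome 11, 120948480 to 120960868), stood at 105 CPM in 6, 97.9 in 2R, 61.7 in 1, 57.5 in 2L, 48.5 in 5, 34.1 in 3, 21.9 in 4a and 10.4 in 4b. It was 10.1-fold apart between 6 and 4b, and both 4a and 4b lay below all other tumors. Slc16a1, which encodes MCT1, stood at 385 CPM in 6, 368 in 2R, 301 in 4a, 253 in 4b, 224 in 1, 175 in 2L, 141 in 3 and 125 in 5. It was above Slc16a3 per kilobase in 8 of 8 tumors, with a log2 ratio of Slc16a3 over Slc16a1 of -2.65 on average (SD 1.16), from -4.87 in 4b and -4.05 in 4a to -1.63 in 5.

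**Figure D2:**
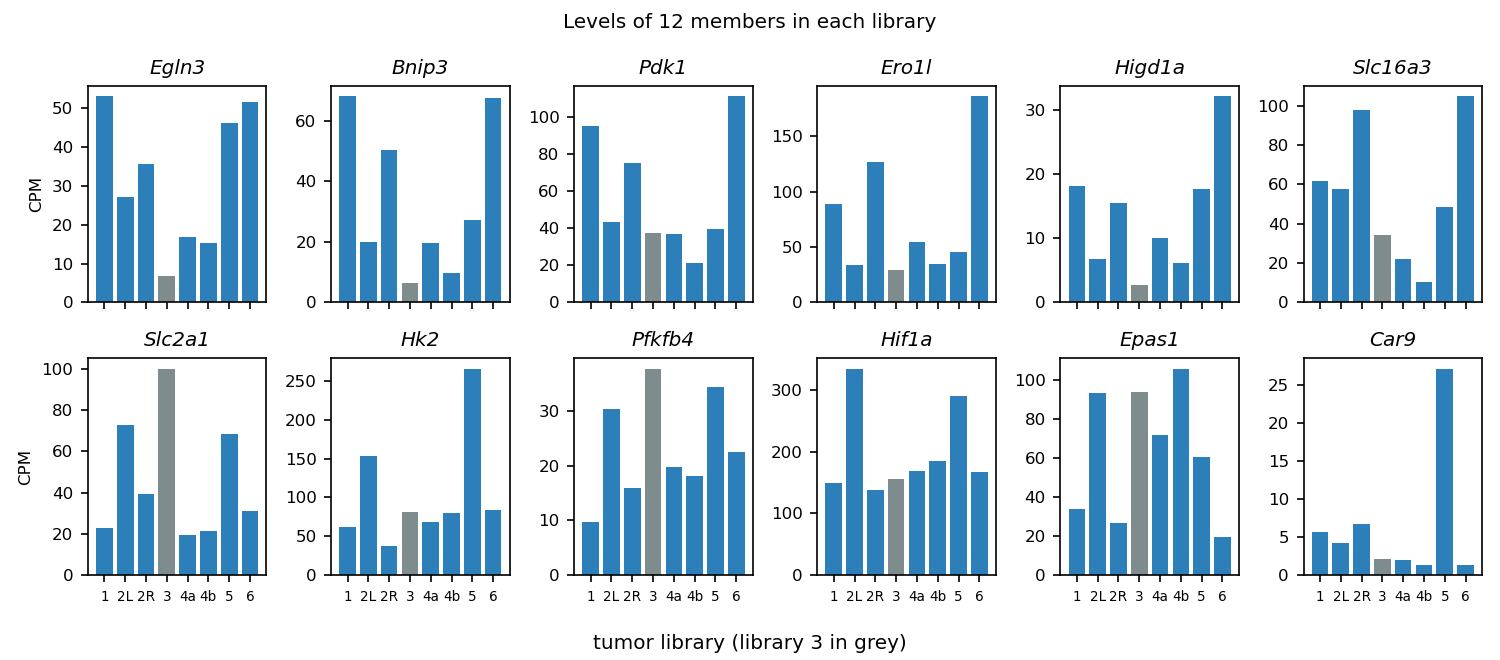
Bars give the CPM of 12 of the genes in each of the 8 tumor libraries, each panel with its own axis from 0, with tumor 3 in grey. In the upper row 1 and 6 are among the 3 tallest bars of each panel and 3 or 4b is the shortest, whereas Slc2a1, Hk2, Pfkfb4 and Hif1a are tall in 2L and 5, Epas1 is lowest in 6, and Car9 reaches 27.2 CPM in 5.

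The HIF targets outside glycolysis differed in which tumors held most of them. Over a further list of 40 HIF targets, 36 were kept, and their median difference from the other tumors was taken on the log2 scale. It was 0.08 in 1, 0.10 in 2R, 0.13 in 6 and 0.23 in 5. In 4a and in 4b it was 0.01, in 2L -0.33 and in 3 -0.50. This wider list was thus not low in 4a and 4b. Bnip3, a mitochondrial protein that starts mitophagy (ENSMUSG00000078566, mm10 chromosome 7, 138890836 to 138909519), stood at 68.1 CPM in 1, 67.4 in 6, 50.3 in 2R, 27.2 in 5, 19.99 in 2L, 19.8 in 4a, 9.67 in 4b and 6.39 in 3. The value in tumor 3 rests on 12 counts, and 4b was the lowest of the others. Its relative Bnip3l stood at 140.1 CPM in 5, 91.1 in 1, 80.4 in 6, 74.1 in 2R, 70.6 in 4a, 64.7 in 4b, 57.3 in 2L and 27.2 in 3. Bnip3l also takes part in the clearing of mitochondria from maturing red cells, and its highest value was in tumor 5, which holds the red cell markers; their part in it was not tested. Per kilobase, Bnip3 exceeded Bnip3l in 3 of 8 tumors, 1, 2R and 6, with a mean log2 ratio of -0.70 (SD 0.95). Stretches shared with other genes were 62.4% for Bnip3 and 23.4% for Bnip3l. Reads may therefore have been lost unequally, and the direction of this ratio is uncertain.

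Higd1a, a small protein of the respiratory chain, stood at 32.1 CPM in 6, 18.1 in 1, 17.7 in 5, 15.4 in 2R, 10.1 in 4a, 6.70 in 2L, 6.12 in 4b and 2.66 in 3, with 5 counts in tumor 3. Ero1l, an oxidase that forms disulfide bonds in the endoplasmic reticulum, ranged from 29.3 CPM in 3 to 186 CPM in 6, and its median was 50.1 CPM. It was at 127 CPM in 2R and at 88.4 CPM in 1. Ankrd37 was scarce, at 1.02 CPM in 2L to 6.57 CPM in 1. Ndrg1 stood at 203 CPM in 6, 162 in 1, 156 in 2R, 153 in 5, 139.6 in 2L, 106 in 3, 93.05 in 4a and 85.3 in 4b, a spread of 2.37-fold with the lowest values in 4b and 4a.

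Ddit4, a stress-induced inhibitor of mTORC1, was at 132 CPM in tumor 1, against 32.3 to 61.7 CPM in the other 7. Car9, a carbonic anhydrase of the cell surface and a widely used marker of hypoxia, stood at 27.2 CPM in 5, 6.70 in 2R, 5.59 in 1, 4.19 in 2L, 2.13 in 3, 1.90 in 4a, 1.30 in 6 and 1.28 in 4b. Tumor 5 stood alone, with 6.70 CPM in 2R as the next value. Tumor 5 was also highest for Hk2 and Bnip3l, at 266 and 140.1 CPM. It was among the higher tumors for Slc2a1 (68.4 CPM), Pfkfb4 (34.5), Egln3 (46.1) and Higd1a (17.7). It was not among the highest for Pdk1, Ero1l or Slc16a3, and was lowest for Pfkm, Slc16a1, Egln1 and Vhl.

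Set against all genes, the 33 kept genes of the list had a larger median spread between tumors: the median SD of log2 CPM was 0.755, against 0.513 for the 11505 genes kept. Without tumor 3 these medians were 0.709 and 0.388. These are descriptions of the list, without a test.

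To see which tumors held high or low levels, each was compared with the median of the other 7, and genes at least 2-fold away were counted. In tumor 6, 8 of 33 were higher (Ero1l, Bnip3, Higd1a, Pdk1, Aldoa, Hk1, Slc16a3 and Tpi1), against 6.30% of all genes kept, and 4 were lower (Ldhb, Eno2, Epas1 and Slc2a3), against 10%. In tumor 1, 6 were higher (Eno2, Bnip3, Ddit4, Pfkfb3, Ankrd37 and Pdk1), against 4.35%, and 2 were lower (Pfkfb4 and Epas1), against 5.87%. In 2R, 6 were higher (Ero1l, Ldhb, Bnip3, Aldoa, Eno2 and Slc16a3), against 5.04%, and 2 were lower (Epas1 and Hk2), against 4.05%. The median difference over the 33 was 0.60 in 6, 0.48 in 1 and 0.41 in 2R on the log2 scale, against -0.01, 0.00 and 0.01 over all genes.

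Tumors 4a and 4b had the opposite balance. In 4b, 0 were higher, against 3.36% of all genes, and 10 were lower (Slc16a3, Tpi1, Aldoa, Bnip3, Pfkl, Higd1a, Egln3, Ldha, Ankrd37 and Pdk1), against 4.43%. In 4a, 0 were higher, against 2.61%, and 6 were lower (Ldhb, Slc16a3, Pfkl, Ankrd37, Egln3 and Slc2a1), against 3.47%. The median difference over the 33 was -0.68 in 4b and -0.54 in 4a, and 6 of 33 genes stood above the median of the other tumors in each of the pair, against 51.5% of all genes in 4b and 49.2% in 4a. Fibroblast markers summed over 10 genes were highest in 4b at 22467 CPM, followed by 19905 CPM in 2R and 19770 CPM in 4a. Their median log2 difference from the other tumors, over the 9 kept, had another order. It was 0.61 in 4a, 0.60 in 2R, 0.49 in 5 and 0.33 in 4b. The part of these markers in the levels was not tested.

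In tumor 3, 2 of 33 were higher (Ldhb and Slc2a1), against 18.6% of all genes, and 9 were lower (Higd1a, Egln3, Bnip3, Pgk1, Bnip3l, Ldha, Pkm, Eno2 and Hk1), against 20.1%. Both background shares are far above those of any other tumor, so a 2-fold difference there is common. In 2L, 4 were higher (Pfkm, Aldoa, Slc2a1 and Hif1a), against 7.89%, and 2 were lower (Ankrd37 and Higd1a), against 5.76%. In tumor 5, 2 were higher (Hk2 and Slc2a1), against 5.45%, and 3 were lower (Egln1, Pfkm and Slc16a1), against 3.30%. As shares of the 33, the genes higher and lower were 24.2% and 12.1% in 6, 18.2% and 6.06% in 1 and in 2R, 0.0% and 30.3% in 4b, 0.0% and 18.2% in 4a, 6.06% and 27.3% in 3, 12.1% and 6.06% in 2L, and 6.06% and 9.09% in 5. Leaving tumor 3 out of the libraries compared, an alternative chosen after seeing the data, gave 8 higher and 4 lower in 6, against 5.68% and 9.50% of all genes. It gave 7 and 1 in 1, against 4.84% and 6.54%, and 5 and 2 in 2R, against 4.97% and 4.05%. In 4b it gave 1 and 11, against 2.92% and 4.22%, and in 4a 0 and 5, against 1.94% and 2.82%. The counts were 6 and 3 in 2L, against 7.52% and 5.53%, and 2 and 1 in 5, against 5.72% and 3.77%.

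**Figure D3:**
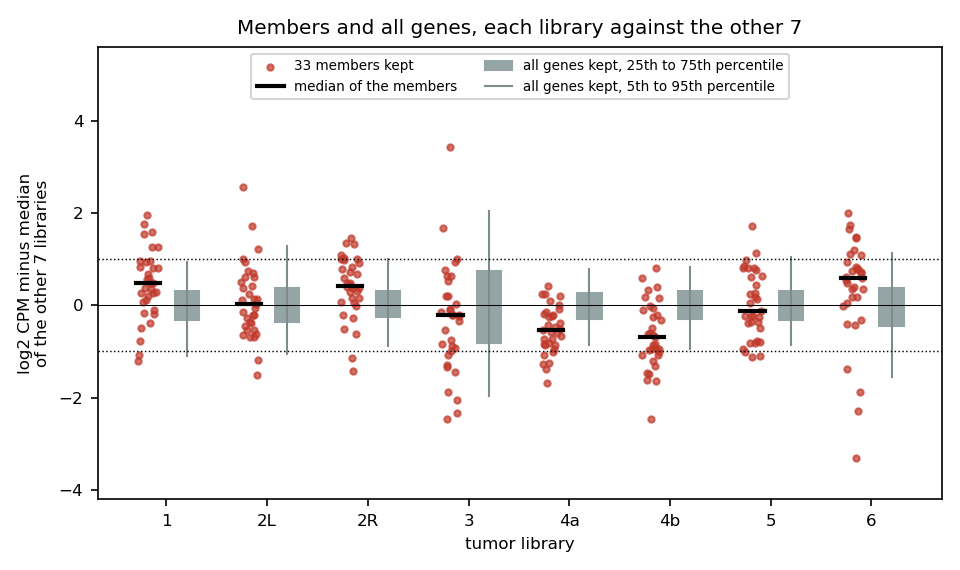
Points are the 33 genes in each tumor library, as log2 CPM minus the median of the other 7 libraries, with a black bar at their median; the grey box and line beside them span the 25th to 75th and the 5th to 95th percentile of all 11505 genes kept. The medians are 0.60 in 6, 0.48 in 1 and 0.41 in 2R, and -0.68 in 4b and -0.54 in 4a, while the grey span is widest in 3.

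Library scaling bears on these differences. With the totals of the kept genes and no factor, the median of all genes moved to -1.57 in tumor 3, -0.44 in 2R, 0.37 in 2L, 0.34 in 4a, 0.26 in 6, -0.18 in 5 and 0.16 in 4b on the log2 scale. A factor moves all genes of a library alike, so the medians of the 33 moved with it, to 0.48 in 1, 0.06 in 2R, 0.92 in 6, -0.22 in 4a and -0.58 in 4b. The counts past 2-fold without factors were 15 higher and 4 lower in 6, against 11.9% and 6.54% of all genes, and 8 and 1 in 1, against 4.83% and 6.28%. In 2R they were 1 and 2, against 2.37% and 10.1%, and in 2L 8 and 1, against 15.6% and 2.25%. In 4a they were 1 and 2, against 7.54% and 1.37%, in 4b 1 and 8, against 5.6% and 2.93%, and in 3 1 and 26, against 2.56% and 68.4%. The 6 genes higher in 2R and the 6 lower in 4a therefore depend on the scaling. Other quantities also differed between these tumors. Mitochondrial counts were 16.3% of the library in 1, 27.3% in 2R and 1.81% in 6, and 4.05% in 4a and 9.54% in 4b, and their part in the levels was not tested. Macrophage markers, 12 of 12 kept, summed to 4237 CPM in 6, 1253 in 1 and 1525 in 2R, and to 1917 in 4a, 1112 in 4b and 336 in 3, and their part in the levels was not tested.

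Tumors that share a number were compared as single libraries, without a test. Of 33 genes, 4 were at least 2-fold higher in 2L than in 2R (Pfkm, Hk2, Epas1 and Hif1a, by 2.56, 2.06, 1.80 and 1.27 on the log2 scale), against 9.03% of all genes. A further 7 were at least 2-fold lower in 2L (Ero1l, Ankrd37, Ldhb, Bnip3, Eno2, Higd1a and Slc16a1, with log2 ratios of -1.91 to -1.08), against 8.33%. Without TMM factors the balance turned round, with 9 of 33 higher in 2L, against 28.8% of all genes, and 2 lower, against 2.35%. With TMM factors, Hif1a and Epas1 thus stood higher in 2L, and Bnip3, Ero1l and Higd1a lower. In 4a over 4b, 2 were at least 2-fold higher (Slc16a3 and Bnip3), against 2.53%, and 1 was lower (Slc2a3), against 1.92%. The median of the 33 log2 ratios was -0.37 in 2L over 2R and 0.12 in 4a over 4b.

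To ask whether numbers differed, all 11505 genes were fitted by 6 numbers with the quasi-likelihood F-test of edgeR and adjusted after Benjamini and Hochberg, where the 2 same-number pairs alone give the spread (2 residual degrees of freedom). It called 0 genes at an adjusted p of 0.05 (0.0% of all genes) and 0 of the 33; the smallest adjusted p by edgeR was 0.0902 over all genes and 0.11 in the list, for Egln3. At an unadjusted p under 0.05 edgeR had 2813 genes (24.5%) and 15 of the 33, Ldhb, Pfkl, Eno1, Slc2a1 and Hk1 among them. DESeq2's likelihood ratio test called 2383 genes (20.7%) and 16 of the 33. The edgeR count depends on the unequal pairs: without 2R it called 4548 genes and 28 of the 33, and without 2L 4457 genes and 30 of the 33, where the spread rests on 4a and 4b alone and a lone sample is assumed to vary like these. So whether these genes differ among the numbers beyond the spread within a number depended on the test and on the pair used. In simulated data with genes altered in number 6, the edgeR test with all libraries missed every 2-fold change. Its 0 calls therefore do not show that 2-fold differences are absent.

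**Figure D4:**
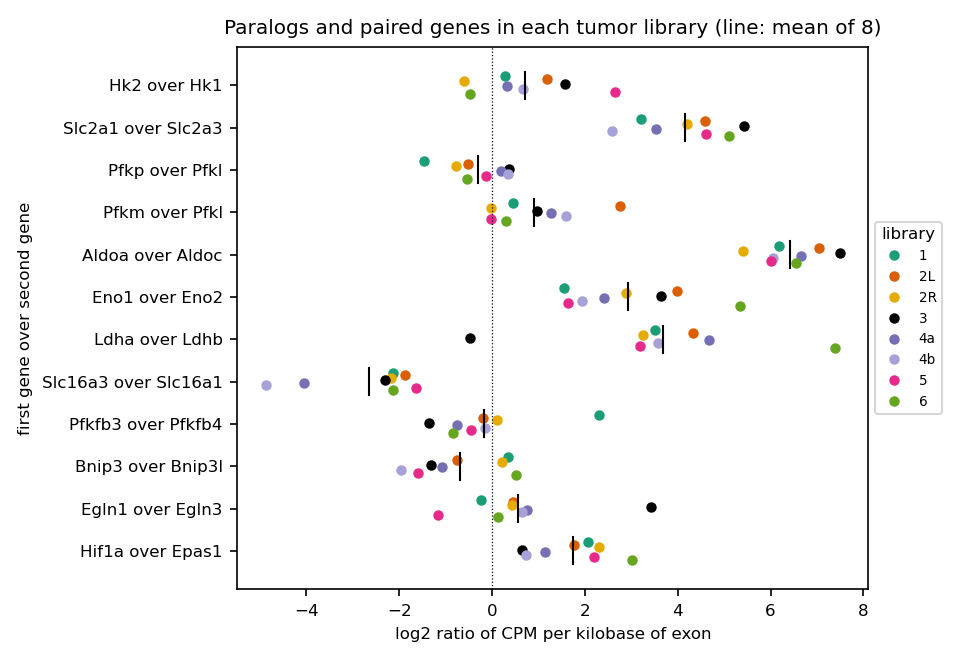
Points are log2 ratios of CPM per kilobase between 2 genes of 1 role in each tumor library, colored by tumor, and the black line is the mean of the 8. Slc2a1 over Slc2a3, Aldoa over Aldoc, Eno1 over Eno2 and Hif1a over Epas1 are above 0 in 8 of 8 and Slc16a3 over Slc16a1 in 0 of 8, and single points stand apart for Ldha over Ldhb (3 at -0.47), Egln1 over Egln3 (3 at 3.42), Pfkm over Pfkl (2L at 2.75) and Pfkfb3 over Pfkfb4 (1 at 2.30).

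Relations between 10 pairs of genes were computed over the 6 numbers in log2 CPM, with libraries of 1 number averaged, and tested with two-sided exact permutation tests, the smallest p of which is 0.00139. Pgk1 and Ldha had Pearson's r = 0.933 (exact permutation p = 0.00278, adjusted over the 10 relations 0.0278) and Spearman's rho = 0.943 (exact permutation p = 0.0167, adjusted 0.0833). Without numbers 3 and 4, the furthest from the median of Pgk1, r was 0.846 over 4 numbers. Leaving out 1 library at a time gave r of 0.911 to 0.955, but the adjusted p was no longer under 0.05 without 1, 2R, 5 or 6. Leaving out 1, 5 or 6 leaves 5 numbers, for which the smallest possible p is larger. Without 1 and without 6, r was 0.934 and 0.927. The exact permutation p was 0.00833 in both, the smallest that 5 numbers allow (adjusted 0.0833). The loss of the call there does not show a weaker relation. The other 9 relations did not pass the adjustment. All points share library scaling and composition.

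Among these, Slc16a3 with Ldha gave r = 0.806 (exact permutation p = 0.0458, adjusted 0.0917) and rho = 0.943 (exact permutation p = 0.0167, adjusted 0.0833). Without numbers 6 and 4 its r was 0.985. Pdk1 with Ldha gave r = 0.816 (exact permutation p = 0.0625, adjusted 0.104) and rho = 0.886 (exact permutation p = 0.0333, adjusted 0.0833), and r = 0.754 without 1 and 6. Bnip3 with Ndrg1 gave r = 0.858 (exact permutation p = 0.0389, adjusted 0.0917) and rho = 0.829 (exact permutation p = 0.0583, adjusted 0.117), and r = 0.964 without 1 and 3. Egln3 with Ndrg1 gave r = 0.829 (exact permutation p = 0.0306, adjusted 0.0917) and rho = 0.886 (exact permutation p = 0.0333, adjusted 0.0833), and r = 0.620 without 4 and 3. Without library 3, Slc16a3 with Ldha and Egln3 with Ndrg1 passed the adjustment, at r = 0.953 and 0.933.

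No relation of Slc2a1 or Hif1a mRNA with Ldha passed the test. Slc2a1 with Ldha gave r = -0.397 (exact permutation p = 0.404, adjusted 0.449) and rho = -0.257 (exact permutation p = 0.658, adjusted 0.823), r = -0.570 without 4 and 3, and r = 0.198 without library 3. Hif1a with Ldha gave r = 0.0903 (exact permutation p = 0.861, adjusted 0.861) and rho = 0.0857 (exact permutation p = 0.919, adjusted 1.0), r = -0.132 without 2 and 5, r = -0.258 without library 3 and -0.240 without 2L. Without TMM factors this r was 0.814, so it depends on the scaling. Ldhb with Ldha gave r = -0.628 (exact permutation p = 0.194, adjusted 0.278) and rho = -0.486 (exact permutation p = 0.356, adjusted 0.508), and r = 0.845 without 3 and 6, so its sign rests on those numbers.

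Epas1 was set against Pecam1, an endothelial gene, because HIF-2 alpha is abundant in endothelial cells. They gave r = 0.845 (exact permutation p = 0.0375, adjusted 0.0917) and rho = 0.657 (exact permutation p = 0.175, adjusted 0.292), r = 0.992 without 3 and 6, and r = 0.969 without library 3, where the adjusted p passed. The 12 endothelial markers, all of them kept, had median differences from the other tumors of 1.04 in 4a, 1.10 in 4b and 0.71 in 2L. They stood at -1.83 in 6, -1.43 in 2R and -1.19 in 1, the tumors in which Epas1 was lowest. The markers stood at -0.08 in 5 and at -0.30 in 3, where Epas1 was at 93.7 CPM, below only 4b. Their summed CPM had another order, 441 in 1 to 1758 in 2R, since Kdr alone was at 1430 CPM in 2R and 833 in 6; the part of endothelial RNA in the Epas1 level was not tested. Pfkm with Ttn, a muscle gene, gave r = 0.446 (exact permutation p = 0.361, adjusted 0.449) and rho = -0.0286 (exact permutation p = 1.0, adjusted 1.0), and r = 0.278 without 4 and 5.

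**Figure D5:**
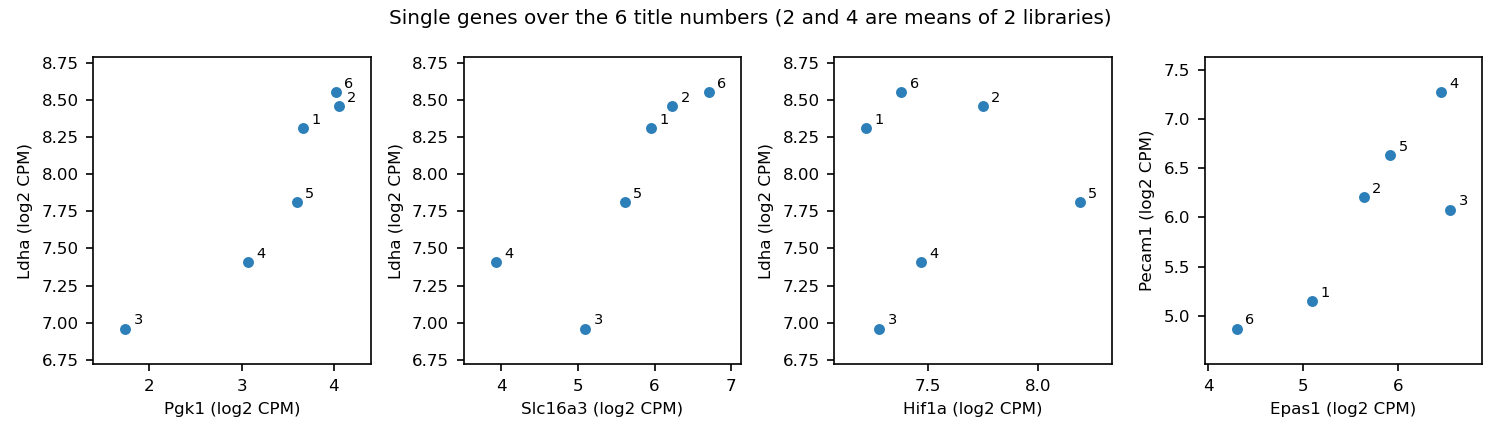
Points are the 6 tumor numbers (2 and 4 are means of 2 libraries), as log2 CPM of 1 gene against log2 CPM of another. Pgk1 and Ldha rise together (r = 0.933), Slc16a3 and Ldha less tightly with 3 below the others (r = 0.806), Hif1a and Ldha show no line (r = 0.0903), and Epas1 and Pecam1 rise together with 3 off the line (r = 0.845).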

How the data were processed

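Total RNA of 8 tumors was sequenced after ribosomal RNA depletion. The authors deposited 1 table of raw counts for 49671 Ensembl identifiers. The tools named for build mm10, per the submitters' processing notes, are RSEM, featureCounts, STAR 2.7.5a and cutadapt. Which of them made the counts, and how strand was handled, is not given in the sources used here, so overlapping genes cannot be told apart. Names, coordinates and exon lengths came from GENCODE M21. In R 4.3.3, edgeR 4.0.16 kept genes with filterByExpr for 1 group and gave the TMM factors. Differences among the 6 title numbers were tested with its quasi-likelihood F-test, and with DESeq2 1.42.0 as an alternative. The F-test was tried on simulated data in which genes were altered in number 6, with 50 genes at each size. It recovered 0 at 2-fold, 27 at 4-fold, 48 at 8-fold and 50 at 16-fold. Of its 129 calls there, 4 were false. CPM and log2 CPM, the latter with a prior count of 2, were computed from these factors in Python 3.11.15. So were ratios, counts past 2-fold and exact permutation tests, with numpy 2.4.6, pandas 2.3.3 and scipy 1.17.1. Figures were drawn with matplotlib 3.10.9. The members and lists were chosen with earlier results of these data known. Values in every library are given for genes of the pairs, the 6 genes of highest mean CPM per kilobase and the 6 of largest SD of log2 CPM, and the others by range. Of each other list, the 3 genes of highest mean CPM per kilobase and the 2 of largest SD among those kept are named.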

Additional observations from a re-analysis of the deposited data

Results flagged for a closer look

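In 4 of 48 values examined, 1 tumor stood apart from the other 7 by a gap larger than Dixon's critical share of the range for 8 samples; chance flags about 1 in 20. Pfkm was at 7.73 log2 CPM in 2L, with a gap of 0.616 of the range. Ddit4 was at 7.05 log2 CPM in 1, with a gap of 0.543. The log2 ratio of Pfkfb3 over Pfkfb4 per kilobase was 2.30 in 1, with a gap of 0.603. The log2 ratio of Egln1 over Egln3 per kilobase was 3.42 in 3, with a gap of 0.582, and the Egln3 count there was 13.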

How the results depend on the processing

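Counts in tumor 3 limit every value there, and no value in the table tells fewer cells of a type from less RNA per cell. The ratio of Hk2 over Hk1 was -0.18 with the longest transcript as the length, that of Pfkfb3 over Pfkfb4 was 0.0 (it was -0.17), that of Aldoa over Aldoc 7.1, that of Pfkm over Pfkl 0.29 (it was 0.91) and that of Pfkp over Pfkl -0.53 (it was -0.31); the length itself sets these shifts. Without TMM factors r was 0.0133 for Slc2a1 with Ldha, 0.924 for Pdk1 with Ldha, 0.881 for Slc16a3 with Ldha, 0.98 for Bnip3 with Ndrg1 and for Egln3 with Ndrg1, 0.919 for Epas1 with Pecam1 and -0.206 for Pfkm with Ttn. With all 8 libraries as points, r was 0.811 for Pdk1 with Ldha, 0.83 for Slc16a3 with Ldha and 0.834 for Bnip3 with Ndrg1. It was 0.824 for Egln3 with Ndrg1 and 0.88 for Epas1 with Pecam1. Over the 6 numbers these were 0.816, 0.806, 0.858, 0.829 and 0.845. All 5 passed the adjustment with 8 points, but libraries of 1 number are then counted as independent. Passing there is therefore not taken as a result. Leaving out 1 library at a time gave r of 0.911 to 0.955 for Pgk1 with Ldha, -0.258 to 0.316 for Hif1a with Ldha, -0.461 to 0.198 for Slc2a1 with Ldha, 0.735 to 0.953 for Slc16a3 with Ldha, 0.809 to 0.933 for Egln3 with Ndrg1 and 0.725 to 0.969 for Epas1 with Pecam1. The same step gave 0 to 4548 genes and 0 to 30 of the listed genes called among numbers by edgeR. DESeq2 called 2383 of 11505 genes (20.7%) and 16 of the 33. Without a filter beyond 1 count, edgeR called 6260 of 30321 genes (20.6%) and 27 of the 36. A fold of 1.5 gave 145 differences from the other 7 over all tumors (66 at 2-fold), 54.9% of those examined against 30.3% over all genes, 20 of 33 for 2L over 2R (60.6% against 35.9%) and 9 for 4a over 4b (27.3% against 18.8%). Without TMM factors 2L over 2R had 9 higher and 2 lower, in place of 4 and 7, and 1 gene was higher in 2R, 15 in 6 and 8 in 2L, and 26 were lower in 3 and 2 in 4a, in place of 6, 8, 4, 9 and 6. Of the recomputed ratios, 117 kept their sign and stayed within 1 SD, 1 moved further and 2 reversed. Leaving out 1 library cannot move a mean ratio by 1 SD, so there only the sign could have changed. Of the recomputed relations, 118 kept sign and call, 13 were stronger, 4 weaker and 5 reversed. Most of the calls kept were of relations that did not pass. The mean CPM of each gene moved by less than its SD under all alternatives run, which leaving out 1 library could hardly have changed.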

Other observations

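Other genes of the same pathways, from lists drawn up with earlier results known, were unequal in other ways. Of 22 other glycolysis genes 8 were kept. Eno3, the muscle enolase, was at 366 CPM in 2L, 125 in 1 and 57.5 in 3, against 7.64 to 21.6 CPM in the other 5. Slc2a4, the insulin-responsive glucose transporter of muscle and fat, was highest in 2L at 20.1 CPM and in 1 at 16.2 CPM. Bpgm, which makes the 2,3-bisphosphoglycerate of red cells, was at 104 CPM in 5, against 8.52 to 21.9 CPM in the other 7. Minpp1 ranged from 10.5 to 42.5 CPM. Tumor 5 holds the red cell markers, led by Hbb-bs at 11794 CPM there, Hbb-bt at 2074 and Hba-a1 at 408, and 2L holds the muscle markers, with Ttn at 12172, Neb at 1597 and Des at 209.8 CPM; their part in these levels was not tested.

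Genes of pyruvate import and of the pyruvate dehydrogenase complex and its regulators (13 of 14 kept) were more even, with a median SD of 0.469 in log2 CPM. Pdha1 had 73.0 to 177 CPM, Dld 37.8 to 136, Dlat 41.3 to 86.1, Pdp1 12.3 to 54.9 and Pdk3 8.52 to 37.2 CPM, each of these except Dlat with its lowest value in tumor 3. Among gluconeogenesis and glycogen genes (9 of 15 kept), Ugp2 had 38.9 to 228 CPM, Pgm1 28.2 to 117, Pygb 42.8 to 77.8, Gys1 10.7 to 53.4 and Gbe1 11.2 to 62.3 CPM. Other regulators of HIF (12 of 14 kept) had nearly equal sums in every tumor, 574 to 642 CPM; Elob had 20.7 to 63.6, Cul2 33.02 to 91.1, Eloc 14.9 to 55.8 and Cited2 4.46 to 23.1 CPM. Of 40 other HIF targets 36 were kept, and Epo had no count in any library, which allows 0.118 to 1.60 CPM per library. Lox and Vegfa had another order of tumors than Bnip3. Lox, a collagen cross-linking enzyme, was at 555 CPM in 4a and 531 in 4b, against 55.4 to 395 CPM in the other 6. Vegfa, an angiogenic factor, was at 366 CPM in 2R and 346 in 1, against 106 to 279.7 CPM in the other 6. Ppp1r3c, a glycogen-targeting subunit, was highest in 2L at 54.4 CPM and lowest in 4b at 2.57 CPM, and P4ha1 ranged from 35.7 to 1337 CPM.

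Markers of other cell types ranged widely over the 8 tumors. Their lowest and highest values were 46.9 to 887 CPM for Lyz2, 68.7 to 439 for C1qa, 46.9 to 266 for C1qb, 5.86 to 292 for Cd163 and 41.01 to 1231 for Mrc1 (macrophages), 28.1 to 365 for Egfl7, 20.5 to 126 for Cdh5 and 1.14 to 33.4 for Cldn5 (endothelium), and 401 to 13483 for Col1a2, 419.7 to 7314 for Col1a1, 152 to 3850.1 for Pi16 and 5.86 to 445 for Dpt (fibroblasts). Proliferation genes (20 of 20 kept) summed to 1654 CPM in 3 against 476 to 845 CPM in the other 7; Foxm1 was at 117 and Bub1b at 145 CPM in 3, against at most 14.5 and 20.7 CPM elsewhere, Mki67 at 396 against 105 to 169.7, Top2a at 185 against 100.2 to 167, and Rrm2 had 18.7 to 98.1 CPM. Of 11 neutrophil markers 0 were kept, and their sums were 1.30 to 66.9 CPM.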
